A study of Mus musculus with 15 samples.

Results

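The 41 genes described here serve ribosome production, largely in the nucleolus. They encode subunits of RNA polymerase I, proteins of the small nucleolar ribonucleoproteins (snoRNPs) and assembly factors of both ribosomal subunits. Srm, a polyamine enzyme, is usually grouped with them. The 41 genes were chosen as a fixed list of symbols, which were matched to the Ensembl row identifiers of the counts. All 41 were found among 55450 gene IDs, and all 41 passed the filter on low counts that left 15808 genes to test. The genes lie on 17 chromosomes. Liver mRNA was sequenced from 15 female C57BL/6 mice, 5 per group and 1 library per mouse, to follow aging and treatment with protectin DX (PDX), a lipid mediator derived from docosahexaenoic acid. Adult mice (A1 to A5) were 6 months of age and Old mice (O1 to O5) were 22 months, both given the corn oil vehicle by daily gavage, while PDX mice (P1 to P5) were 22 months and received PDX in corn oil at 30 ng/g of body weight. These are the ages on entry to the study, and the livers were taken at its end, after the weeks of testing and gavage. The treatment protocol gives 9 weeks of gavage, whereas the design text of the series gives 8. The 5 mice of a group were separate animals.

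Ribosome production starts with the transcription of ribosomal DNA by RNA polymerase I. The transcript is then modified under the guidance of small nucleolar RNAs, cut, folded and joined to ribosomal proteins. This takes a long series of assembly factors, which leave before the subunit is mature. The genes for these factors are known targets of the transcription factor Myc, and in liver they are known to rise when hepatocytes grow or regenerate. The study examined predefined Hallmark sets of Myc targets in these same 15 livers by gene set enrichment. It reported them as coordinately higher in Old than in Adult and lower in PDX than in Old. The genes it displayed were those that contributed most to this pattern. The direction of the members described here is therefore not independent evidence in these mice.

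Each mouse had between 22424383 and 36070835 counted read pairs, and members had between 89 and 14682 pairs in a mouse. RNA integrity numbers were stated as 8.2 to 8.7 for the libraries as a whole. Values are given as CPM, the counts of a gene relative to the size of its library scaled with TMM factors, and differences were tested with edgeR's quasi-likelihood test, with p adjusted over all genes tested.

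Myc and related factors are known to bind the letters CACGTG, which read the same on both strands. Of the members, 36 had a promoter in RefSeq (GRCm38.p6, 250 bases before and 50 bases after the start of transcription), and 9 of these 36 (25%) held CACGTG. The share was 11.3% over all tested genes with a listed promoter, 8.09% over all genes with one, and 16.8% (17 of 101) among other ribosome assembly genes. No promoter was listed for Fbl, Npm1, Rrp12, Bop1 and Srm. In 7 of the 9 members (77.8%) the motif began after the start of transcription, whereas this held for 13.9% of the motifs in all promoters (361 of 2589). The motif and up to 10 bases on each side are shown for these 9 members, since this is the regulatory sequence searched for and these are the members that hold it, on the strand of the gene and with the motif in capitals.
Mybbp1a (chr11:72441357-72441376, plus strand): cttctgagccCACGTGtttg
Wdr43 (chr17:71616222-71616247, plus strand): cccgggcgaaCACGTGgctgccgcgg
Utp20 (chr10:88826765-88826787, minus strand): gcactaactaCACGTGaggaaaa
Imp4 (chr1:34439698-34439723, plus strand): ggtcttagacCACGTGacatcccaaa
Tsr1 (chr11:74898094-74898119, plus strand): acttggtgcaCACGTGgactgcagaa
Ltv1 (chr10:13193094-13193119, minus strand): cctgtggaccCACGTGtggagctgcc
Pes1 (chr11:3963967-3963992, plus strand): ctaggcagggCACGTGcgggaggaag
Nop2 (chr6:125131813-125131838, plus strand): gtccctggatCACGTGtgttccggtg
Grwd1 (chr7:45830740-45830765, minus strand): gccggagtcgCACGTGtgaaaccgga

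The motif began 121 bases before the start in Imp4 and 60 before it in Nop2, and between 2 and 40 bases after it in the 7 others. A match describes the letters only and says nothing of what is bound there.

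Ribosome biogenesis genes were higher on average in Old than in Adult livers, and most of the difference came from 1 mouse, O5. The fitted log2 fold change of Old over Adult was above 0 for 40 of 41 members (97.6%), where 56.8% of all tested genes were above 0, and its median was 0.51 (range -0.22 to 1.26) beside 0.07 for all tested genes. Only Srm passed the test, which is 2.44% of the members, beside 6.78% of all tested genes called (4.71% higher and 2.07% lower). At an unadjusted p under 0.05, 15 members were higher and 0 lower (36.6%, against 17.9% of tested genes higher and 9.81% lower). The Old and Adult mice overlapped for all 41 members, where 8.13% of tested genes had no overlap (3.65% higher and 4.48% lower in Old). In bulk tissue a change in the number of cells of a type and a change of RNA per cell cannot be told apart.

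Mouse O5 had the highest level of the 15 mice for 40 of 41 members (97.6%), whereas it was the highest for 25.9% of all tested genes. The exception was Imp4, highest in O1, and O5 was among the highest pair of mice for all 41. The mean over the members of log2 CPM, set relative to each gene's Adult mean, was 1.36 in O5. It was 0.23 in O1, 0.17 in O2, -0.21 in O3 and 0.27 in O4. The Adult mice lay between -0.08 and 0.09 and the PDX mice between -0.10 and 0.15, so O1, O2 and O4 lay just above both ranges and O3 below them. As group values these means were 0 ± 0.06 in Adult, 0.36 ± 0.59 in Old and 0.02 ± 0.10 in PDX (SD, n = 5 each).

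**Figure D1:**
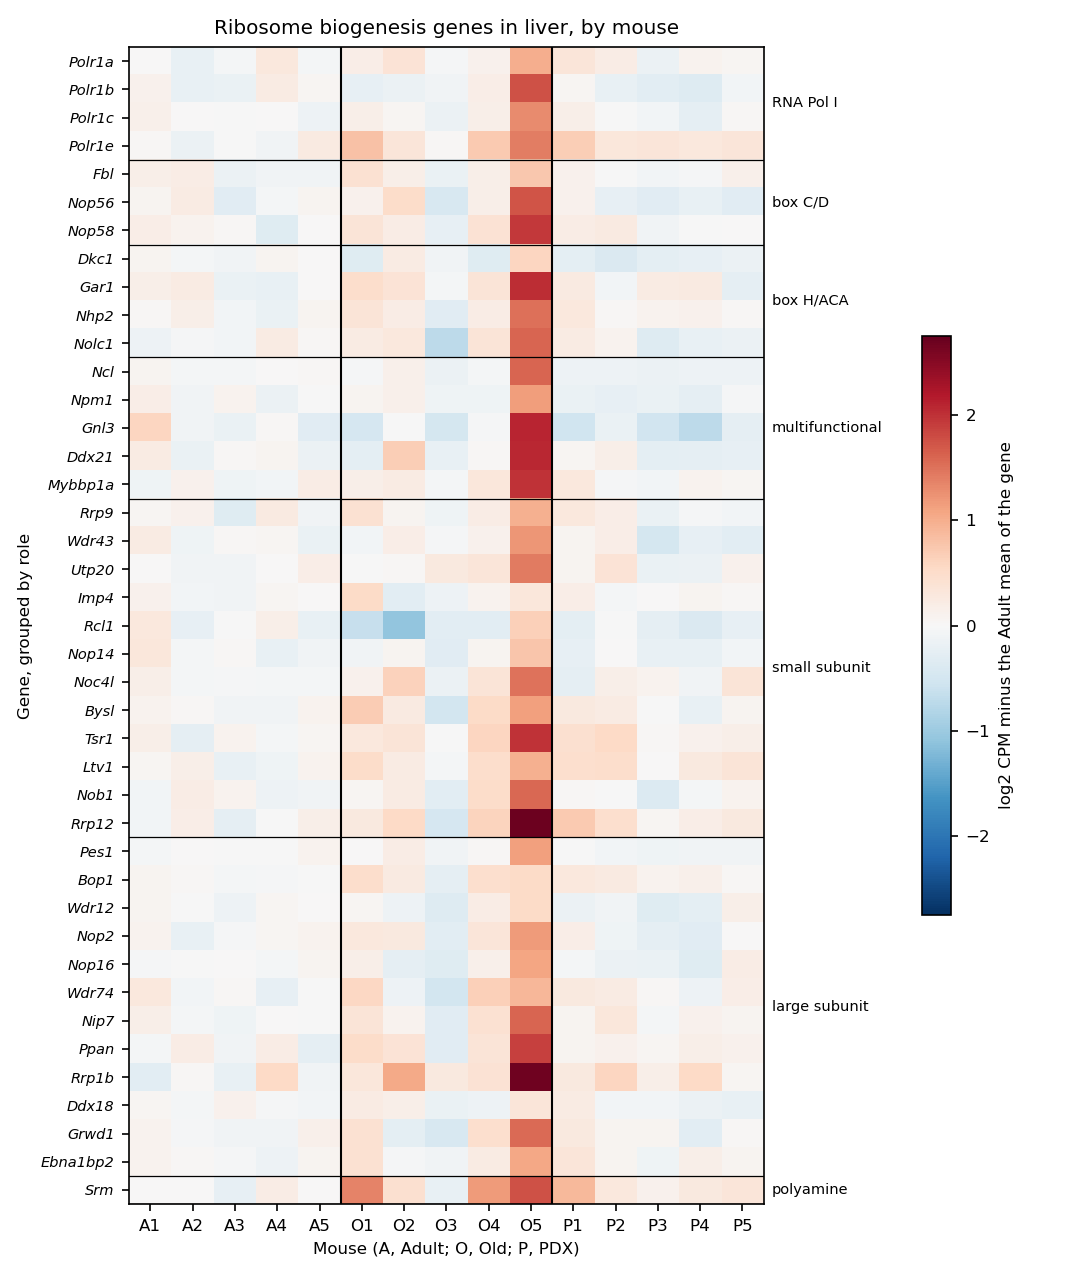
Heatmap of log2 CPM minus the gene's Adult mean for the 41 genes (rows, grouped by role) in the 15 mice (columns), where red is above and blue below the Adult mean. The O5 column is red throughout, with values from 0.30 to 2.70, and no other column is.

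O5 exceeded the mean of the 4 other Old mice by a median of 1.23 on the log2 scale (range 0.25 in Imp4 to 2.46 in Rrp12), while the median over all tested genes was -0.08. The excess was above 1 for 27 members (65.9%, against 12.9% of tested genes). Together the members made up 2943 CPM in O5 and between 949 and 1232 CPM in each of the 14 other mice. The ratio of the highest to the lowest mouse within a group had a median over members of 3.10 in Old, 1.28 in Adult and 1.36 in PDX. The SD of log2 CPM was largest in the Old group for 41 of 41 members, which also held for 84.4% of all tested genes. Without O5 the median log2 fold change of Old over Adult was 0.14, with 32 of 41 members above 0, and the share of tested genes above 0 was 52.5%.

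**Figure D2:**
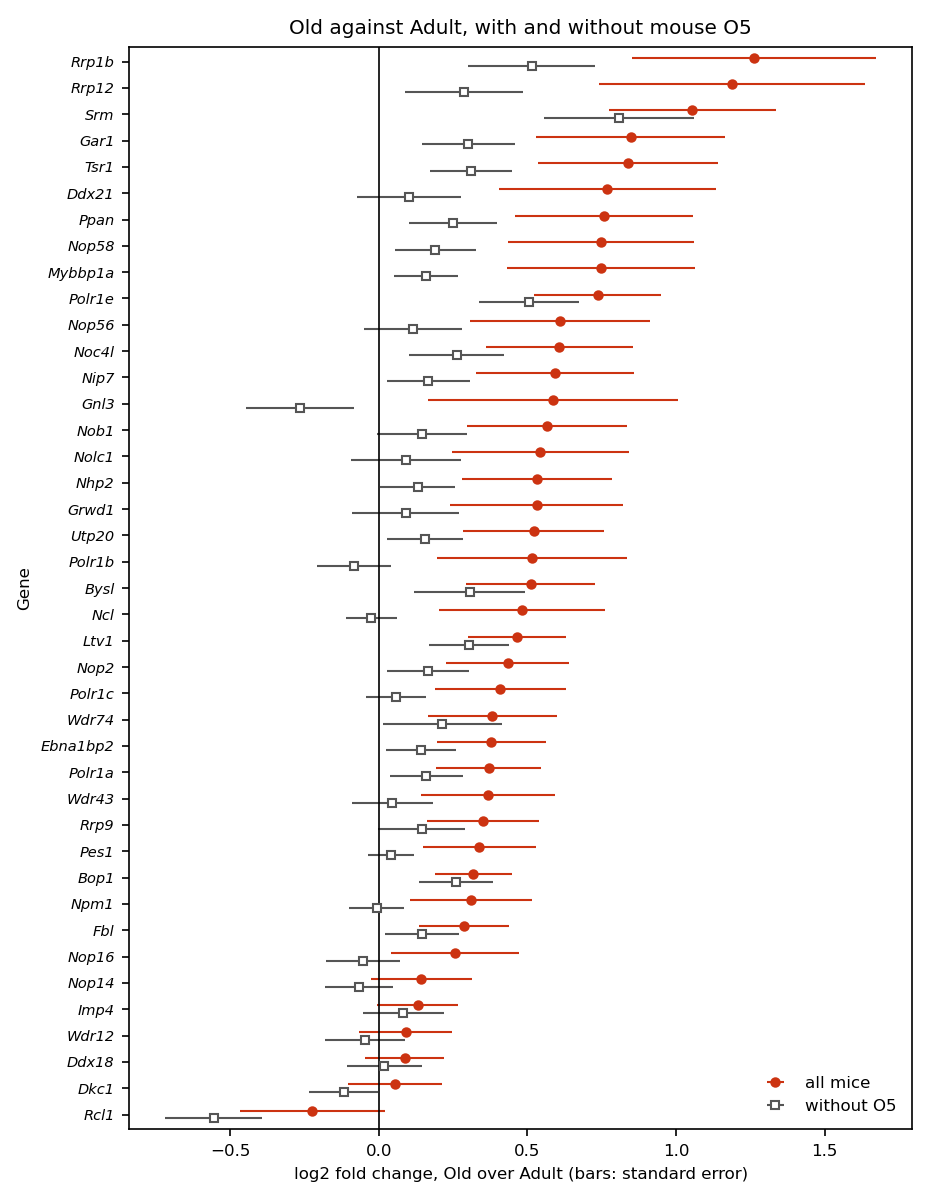
Log2 fold change of Old over Adult for each of the 41 genes from all mice (filled circles) and from the fit without O5 (open squares), with standard errors as bars. Without O5 the median fell from 0.51 to 0.14, and the highest values were then 0.81 for Srm, 0.51 for Rrp1b and 0.50 for Polr1e.

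Genes of RNA polymerase I, which transcribes ribosomal DNA, had a median log2 fold change of 0.46 (4 members, 0 called). Polr1e (chr4:45018583-45036565), a subunit that takes part in initiation, was at 4.89, 4.23, 4.70, 4.46 and 5.62 CPM in A1 to A5, 8.41, 6.00, 4.90, 7.88 and 12.7 in O1 to O5 and 7.69, 5.90, 6.06, 5.86 and 5.99 in P1 to P5. O1, O2, O4 and O5 were above every Adult mouse, and O3 lay within the Adult range. The log2 fold change was 0.74 (SE 0.21, adjusted p = 0.0518), just short of the threshold. Polr1a (chr6:71909053-71984935), the largest catalytic subunit, was at 22.3, 19.0, 21.2, 27.0 and 21.1 CPM in A1 to A5, 25.0, 28.5, 21.5, 23.9 and 43.9 in O1 to O5 and 27.6, 25.2, 19.7, 23.5 and 22.9 in P1 to P5, with O2 and O5 above the Adult range. Its log2 fold change was 0.37 (SE 0.18, adjusted p = 0.185). Polr1b, the other catalytic subunit, had 56.4 CPM in O5 and between 14.3 and 18.8 in the other Old mice, and Polr1c, which is shared with RNA polymerase III, had 57.6 against 20.8 to 26.2.

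Proteins of the box C/D snoRNPs, which methylate ribosomal RNA, had a median of 0.61 (3 members, 0 called). Nop58 (chr1:59684971-59719044), a scaffold protein of the particle, was at 25.8, 24.1, 23.2, 18.1 and 23.0 CPM in A1 to A5, 28.9, 26.0, 19.3, 30.0 and 87.4 in O1 to O5 and 26.0, 26.8, 21.0, 22.4 and 22.7 in P1 to P5. Its partner Nop56 (chr2:130274430-130279313) was at 21.3, 23.7, 16.2, 19.4 and 21.5 CPM in A1 to A5, 22.1, 28.8, 14.9, 22.7 and 67.1 in O1 to O5 and 22.0, 17.3, 16.3, 17.6 and 16.4 in P1 to P5. Both genes were about 3 times as high in O5 as in the other Old mice, with ratios of 3.40 and 3.11 to their geometric mean. For Nop58, O1, O2 and O4 were also above all Adult mice, as were P1 and P2, and O3 lay within the Adult range. For Nop56, only O2 was also above all Adult mice, O1 and O4 lay within their range and O3 below it. The log2 fold changes of Old over Adult were 0.75 (SE 0.31, adjusted p = 0.137) for Nop58 and 0.61 (SE 0.30, adjusted p = 0.202) for Nop56. Fbl (chr7:28169710-28179269), the methyltransferase fibrillarin, moved less, at 13.3, 13.7, 10.7, 11.2 and 11.1 CPM in A1 to A5, 16.0, 13.3, 10.5, 13.3 and 20.0 in O1 to O5 and 12.9, 11.9, 11.3, 11.7 and 13.1 in P1 to P5. O1 and O5 were its only Old mice above the Adult range, and the log2 fold change was 0.29 (SE 0.15, adjusted p = 0.232).

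Box H/ACA snoRNPs convert uridine to pseudouridine, and their genes had a median of 0.54 (4 members, 0 called). Gar1 (chr3:129824912-129831396), a core protein, was at 7.36, 7.68, 5.79, 5.67 and 6.69 CPM in A1 to A5, 9.30, 8.57, 6.37, 8.51 and 27.0 in O1 to O5 and 7.89, 6.22, 7.70, 7.86 and 5.57 in P1 to P5. O5 stood at 3.31 times the level of the other Old mice, of which O1, O2 and O4 were also above all Adult mice and O3 within their range. The log2 fold change was 0.85 (SE 0.32, adjusted p = 0.102). Dkc1 (chrX:75095854-75109777), the pseudouridine synthase dyskerin, was at 19.3, 17.8, 17.1, 19.3 and 18.6 CPM in A1 to A5, 14.5, 21.6, 17.3, 14.5 and 27.7 in O1 to O5 and 15.3, 14.0, 15.2, 15.8 and 16.5 in P1 to P5. Here O1 and O4 lay below all Adult mice while O2 and O5 lay above, and the log2 fold change was 0.05 (SE 0.16, adjusted p = 0.857). Nhp2, another core protein, and the chaperone Nolc1 had 49.4 and 88.2 CPM in O5, where the highest of the other Old mice had 22.2 and 37.4.

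Among the nucleolar proteins with several roles the median was 0.59 (5 members, 0 called), and O5 stood furthest out. Ncl (chr1:86344719-86359400), nucleolin, was at 183, 166, 167, 175 and 176 CPM in A1 to A5, 169, 191, 154, 168 and 529.6 in O1 to O5 and 158, 157, 156, 157 and 158 in P1 to P5. Gnl3 (chr14:31012433-31019152), the GTP-binding protein nucleostemin, was at 46.9, 29.1, 27.4, 31.8 and 25.3 CPM in A1 to A5, 22.7, 30.9, 22.5, 30.7 and 134 in O1 to O5 and 21.3, 27.5, 21.7, 18.9 and 26.5 in P1 to P5. In both genes the 4 other Old mice lay within or below the Adult range except O2 for Ncl, and the log2 fold changes were 0.48 (SE 0.28, adjusted p = 0.276) and 0.59 (SE 0.42, adjusted p = 0.388). Without O5 both were below 0, at -0.03 and -0.27. Npm1 (chr11:33152287-33163206), nucleophosmin, was at 57.9, 47.9, 54.6, 46.1 and 51.2 CPM in A1 to A5, 54.2, 56.4, 47.1, 47.7 and 114 in O1 to O5 and 45.4, 43.8, 45.5, 43.6 and 50.5 in P1 to P5. Ddx21 (chr10:62580251-62602281), an RNA helicase that acts in RNA polymerase I transcription and ribosomal RNA processing, was at 46.7, 34.8, 40.9, 41.9 and 35.8 CPM in A1 to A5, 33.1, 63.3, 34.4, 40.9 and 169 in O1 to O5 and 41.4, 44.3, 32.8, 33.5 and 34.1 in P1 to P5. O5 again stood alone for Npm1, whereas O2 was also above the Adult range for Ddx21, and their log2 fold changes were 0.31 (SE 0.20, adjusted p = 0.344) and 0.77 (SE 0.36, adjusted p = 0.185). Mybbp1a, a nucleolar regulator of transcription, had 271 CPM in O5 and at most 85.2 in any other mouse.

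Assembly factors of the small subunit had a median of 0.49 (12 members, 0 called). Rrp12 (chr19:41862851-41896173), which acts in the maturation and export of pre-ribosomes, was at 8.54, 10.1, 7.52, 8.93 and 10.1 CPM in A1 to A5, 10.9, 13.1, 6.52, 13.7 and 59.0 in O1 to O5 and 14.8, 12.4, 9.37, 10.3 and 10.8 in P1 to P5. The O5 value was 5.52 times that of the other Old mice, the widest gap of all members, and O3 was the lowest of the 15 mice. The log2 fold change was 1.19 (SE 0.45, adjusted p = 0.103) with all mice and 0.29 without O5. Rcl1 (chr19:29101375-29143929), a factor of early pre-ribosomal RNA cleavage, was the exception in direction, at 143, 99.8, 117, 131 and 101 CPM in A1 to A5, 75.3, 55.1, 96.1, 96.6 and 185 in O1 to O5 and 97.0, 116, 99.2, 89.7 and 100.0 in P1 to P5. O1, O2, O3 and O4 lay below every Adult mouse and O5 above every one, and the log2 fold change was -0.22 (SE 0.24, adjusted p = 0.585). Without O5 the fall of Rcl1 passed the test, at -0.56 (adjusted p = 0.0407), beside 13.2% of tested genes called in that fit.

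The other small subunit factors showed the same high mouse. Tsr1 and Noc4l, which act in pre-small subunits, had 75.3 and 28.8 CPM in O5, where the highest of the other Old mice had 28.2 and 15.8. Utp20, a large scaffold of the small subunit processome, had 38.5 CPM in O5 against at most 17.9, and Nob1, the nuclease that makes the last cut, had 33.5 against at most 15.9. Rrp9, Wdr43 and Nop14, further parts of the processome, were at 23.6, 52.4 and 40.5 CPM in O5. Bysl and Ltv1, which act late in the nucleus and on export, had 40.5 and 33.5 CPM in O5 and also 30.3 and 24.3 in O1. Imp4 was the flattest of the 12 across O5, with 38.2 CPM there, 44.8 in O1 and 25.2 to 33.3 in O2, O3 and O4.

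Large subunit assembly factors had the lowest median of the role groups, 0.38 (12 members, 0 called). Rrp1b (chr17:32036100-32062865), a nucleolar processing factor, was at 3.79, 4.76, 4.06, 6.88 and 4.36 CPM in A1 to A5, 5.78, 9.71, 5.62, 6.13 and 30.0 in O1 to O5 and 5.64, 7.03, 5.20, 6.86 and 4.82 in P1 to P5. O2 and O5 were above the Adult range, the other Old mice were within it, and the log2 fold change was 1.26 (SE 0.41, adjusted p = 0.069), the largest of the 41. Nop2 (chr6:125131909-125144753), a cytosine methyltransferase of ribosomal RNA, was at 24.5, 19.7, 22.2, 23.9 and 24.5 CPM in A1 to A5, 27.9, 27.6, 18.6, 28.9 and 51.9 in O1 to O5 and 25.8, 20.9, 19.2, 18.3 and 23.2 in P1 to P5. O1, O2, O4 and O5 were above all Adult mice and O3 below them, with a log2 fold change of 0.43 (SE 0.21, adjusted p = 0.187). Ddx18 (chr1:121553835-121567989), an RNA helicase, was nearly flat at 9.19, 8.60, 9.58, 8.67 and 8.38 CPM in A1 to A5, 10.4, 9.86, 7.77, 8.02 and 11.1 in O1 to O5 and 10.4, 8.39, 8.45, 7.93 and 7.67 in P1 to P5, and its log2 fold change was 0.09 (SE 0.13, adjusted p = 0.708). Wdr12 (chr1:60069785-60098645), a subunit of the PeBoW complex, was at 11.6, 10.9, 9.99, 11.3 and 11.1 CPM in A1 to A5, 11.3, 10.0, 8.56, 12.7 and 15.9 in O1 to O5 and 9.86, 10.2, 8.74, 9.04 and 12.4 in P1 to P5. O4 and O5 were above the Adult range of Wdr12, O3 was below it and O1 and O2 lay inside it, and its log2 fold change was 0.09 (SE 0.16, adjusted p = 0.745).

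The partners of Wdr12 in the PeBoW complex differed in how far O5 stood out. Pes1 had 63.1 CPM in O5 and 26.7 to 33.0 in the other Old mice. Bop1 had 45.4 CPM in O5 but also 44.0 in O1 and 43.6 in O4, and the excess of O5 over the other Old mice was 0.29 on the log2 scale for Bop1 against 1.10 for Pes1. Among the remaining factors, Ppan, Grwd1, Nip7 and Nop16 had 56.7, 31.1, 32.3 and 49.6 CPM in O5, and Ebna1bp2 and Wdr74 had 58.9 and 38.7. Each of these was the highest of the 15 mice.

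Srm (chr4:148591503-148594993, ENSMUSG00000006442), spermidine synthase, was the only member called and the only one that is a polyamine enzyme. It was at 16.3, 16.3, 14.0, 18.7 and 16.5 CPM in A1 to A5, 42.1, 22.0, 14.1, 36.5 and 55.3 in O1 to O5 and 30.3, 20.0, 17.8, 19.7 and 20.6 in P1 to P5. O1, O2, O4 and O5 were above all Adult mice and O3 was within the Adult range, so that Srm was not a matter of O5 alone. The group means were 16.4 ± 1.66 CPM in Adult, 34.0 ± 16.3 in Old and 21.7 ± 4.95 in PDX (SD, n = 5 each), and Old was 2.08-fold higher than Adult (log2 fold change 1.05 (SE 0.28, adjusted p = 0.0388)). Without O5 the log2 fold change was 0.81 (adjusted p = 0.0493). The call was lost without any 1 of the Adult mice (adjusted p from 0.0773 to 0.0931), without O1 (0.0524) and without P2, P3, P4 or P5 (0.0504 to 0.0538). The adjusted p was 0.00608 by DESeq2 and 0.0959 by limma-voom, and with edgeR it was 0.0731 with a replicate block and 0.115 in a fit of the 10 Old and Adult mice alone.

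**Figure D3:**
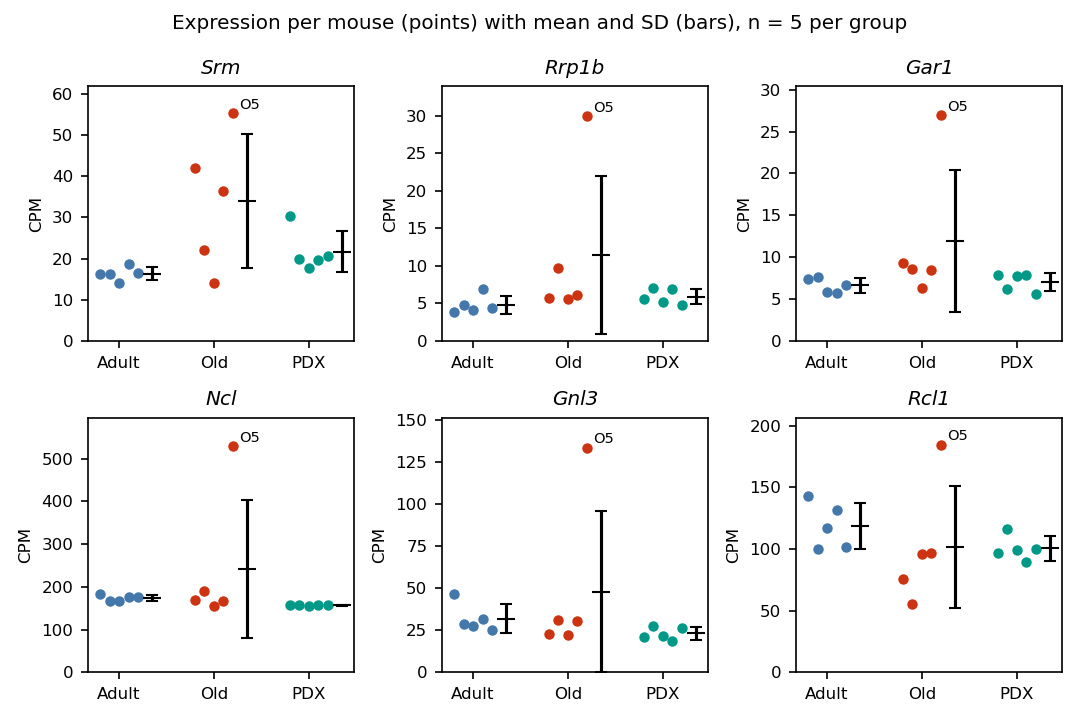
CPM of 6 genes in each mouse (points), with the group mean and SD beside them (black bars, n = 5 per group). O5 is the highest mouse in every panel, at 55.3 CPM for Srm and 530 CPM for Ncl, and the 4 other Old mice lie below all Adult mice for Rcl1.

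The number of members called between Old and Adult depended on single mice and on the tool. It was 11 without O3, namely Polr1e, Gar1, Noc4l, Bysl, Tsr1, Ltv1, Rrp12, Bop1, Ppan, Rrp1b and Srm, all higher, beside 8.55% of tested genes called higher in that fit. It was 2 without O2 (Polr1e and Srm, beside 4.32% of tested genes), 2 without O4 (Rrp1b and Srm, beside 9.92%), 2 without O5 (Srm, and Rcl1 lower, beside 13.2%) and 1 without O1 (Rrp1b, beside 9.85%). It was 0 without any 1 of A1 to A5 (0.97% to 1.51% of tested genes) or of P2 to P5 (4.42% to 5.47%). DESeq2 called 5 (Polr1e, Tsr1, Rrp12, Rrp1b and Srm), beside 11.1% of tested genes called higher, and limma-voom called 0, beside 2.97% of tested genes.

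In PDX livers the set stood close to the Adult level. Compared with Adult, the median log2 fold change was 0.04 (range -0.47 to 0.41), beside -0.01 for all tested genes, with 23 of 41 members (56.1%) and 48.4% of tested genes above 0. By edgeR over all 15 mice, 0 of 41 members were called (2.66% of all tested genes were, 1.76% higher and 0.898% lower), 0 had an unadjusted p under 0.05 (20.6% of tested genes did, 11.2% higher and 9.41% lower), and DESeq2 and limma-voom also called 0. In an edgeR fit of the 10 PDX and Adult mice alone, 4 members were called (Polr1e, Ltv1 and Srm higher, Dkc1 lower), beside 29.6% of tested genes called in that fit. Without O2 and O5, 1 member was called (Dkc1, lower), beside 24.6% of tested genes. For 3 members the 5 PDX mice did not overlap the 5 Adult mice (7.32%, beside 19.9% of tested genes, 10.5% higher and 9.34% lower). Polr1e was higher in every PDX mouse, with a log2 fold change of 0.40 (SE 0.21, adjusted p = 0.307). Dkc1 and Ncl were lower in every PDX mouse, at -0.26 (SE 0.16, adjusted p = 0.356) and -0.14 (SE 0.28, adjusted p = 0.826). These standard errors come from the fit of all 15 mice and so also carry the spread of the Old mice. For Ncl the SD of log2 CPM was 0.06 in Adult, 0.74 in Old and 0.0088 in PDX. The PDX values of Ncl were the most uniform of any member, from 156 to 158 CPM.

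Compared with Old, all 41 members had a log2 fold change below 0 in PDX livers, but none passed the test. The median was -0.48 (range -1.05 to -0.02), beside -0.07 for all tested genes, of which 40.1% were above 0. By edgeR, 0 members were called at an adjusted p of 0.05 or 0.25, and the background was 0 genes in both cases (0%). At an unadjusted p under 0.05, 17 members were lower and 0 higher (41.5%, against 5.28% of tested genes, 4.23% lower and 1.04% higher). DESeq2 and limma-voom called 0 as well, with 17 and 1 members at an unadjusted p under 0.05, beside 6.51% and 3.53% of tested genes. This comparison shares its Old mice with that of Old and Adult, so it is not a separate observation of the high values in O5.

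The members of smallest p between PDX and Old were Nop56, Nop2 and Gnl3. Their log2 fold changes were -0.80 (SE 0.30, unadjusted p = 0.0188 in edgeR's test), -0.53 (SE 0.21, unadjusted p = 0.0222 in edgeR's test) and -1.05 (SE 0.43, unadjusted p = 0.0254 in edgeR's test), and each had an adjusted p of 0.793. For Nop56 the values of the PDX mice, 16.3 to 22.0 CPM, lay among those of O1, O3 and O4. Srm had a log2 fold change of -0.65 (SE 0.28, adjusted p = 0.793), and P1, at 30.3 CPM, stood above the other PDX mice, which had 17.8 to 20.6. For 0 of 41 members did all PDX mice lie beyond the Old mice, which held for 0.342% of tested genes (0.196% lower and 0.145% higher). Without O5 the median log2 fold change of PDX over Old was -0.11, with 3 members above 0.

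Members differed widely in abundance. Per kilobase of the longest APPRIS principal transcript, Rcl1 had the highest Adult level, 65.8 ± 10.4 CPM per kilobase, followed by Npm1 with 31.6 ± 2.94 and Ncl with 21.2 ± 0.844 (SD, n = 5 each). The lowest were Rrp1b with 0.979 ± 0.253, Wdr12 with 1.10 ± 0.0627 and Polr1e with 1.60 ± 0.179. The transcript models used for Ncl and Wdr12 are long, 8202 and 10012 bases, so their levels per kilobase are low estimates if shorter forms prevail. In the Old group Rcl1 and Ncl were at 56.3 ± 27.5 and 29.6 ± 19.6 CPM per kilobase, where the Adult SDs were 10.4 and 0.844.

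Several members also carry snoRNA genes within their bounds. Where such genes lie in introns, host transcription is linked to the supply of guide RNAs, but introns and exons were not told apart here. By the annotation, 8 of 41 members (19.5%) held 23 snoRNA genes on their own strand, against 1.56% of tested protein-coding genes (208 of 13347). Nop56 held 5, Nop58 4, Ncl, Gnl3 and Wdr43 3 each, Tsr1 and Ppan 2 each and Dkc1 1. In these hosts the excess of O5 over the other Old mice had a median of 1.65 on the log2 scale (range 0.72 to 2.34), and in the 33 other members it had a median of 1.15 (range 0.25 to 2.46). Members with CACGTG in the promoter had a median excess of 1.17 (9 members, range 0.25 to 1.82) and those without it 1.26 (27 members, range 0.32 to 2.34), so the ranges overlapped in both splits. The snoRNAs themselves are not polyadenylated and were not measured.

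The high values in O5 extended to other genes of the ribosome but not to those of mitochondria. Of 122 tested genes for other ribosome assembly factors, 3 were called higher in Old than in Adult and 0 lower (2.46%, beside 4.71% of tested genes higher), with a median log2 fold change of 0.18. The called genes were Taf1c, a promoter factor of RNA polymerase I, at 0.88 (adjusted p = 0.037), and the exosome genes Exosc8 at 0.51 (adjusted p = 0.0393) and Mphosph6 at 0.62 (adjusted p = 0.0457). The next by p were Pih1d1, a snoRNP assembly factor, at -0.44 (adjusted p = 0.053), and Exosc9 at 0.60 (adjusted p = 0.0604). Between PDX and Adult and between PDX and Old, 0 of the 122 were called.

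O5 exceeded the other Old mice by a median of 0.69 on the log2 scale in these 122 genes and was the highest of the 15 mice in 89 of them (73.0%). For 81 cytosolic ribosomal protein genes the median was 0.55, with O5 highest in 59 (72.8%). For 77 mitochondrial ribosomal protein genes the median was -0.22, with O5 highest in 10 (13.0%, below the 25.9% of all tested genes). The nucleolar genes thus had the widest gap of the 4 lists. Cytosolic ribosomal proteins were raised in most Old mice. Their list medians relative to Adult were 0.57 in O1, 0.22 in O2, 0.04 in O3, 0.35 in O4 and 0.80 in O5. The Adult mice lay between -0.13 and 0.08 and the PDX mice between 0.05 and 0.25. The mean of O1 to O4 was above Adult for 69 of the 81 genes (85.2%, beside 50.3% of tested genes).

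**Figure D4:**
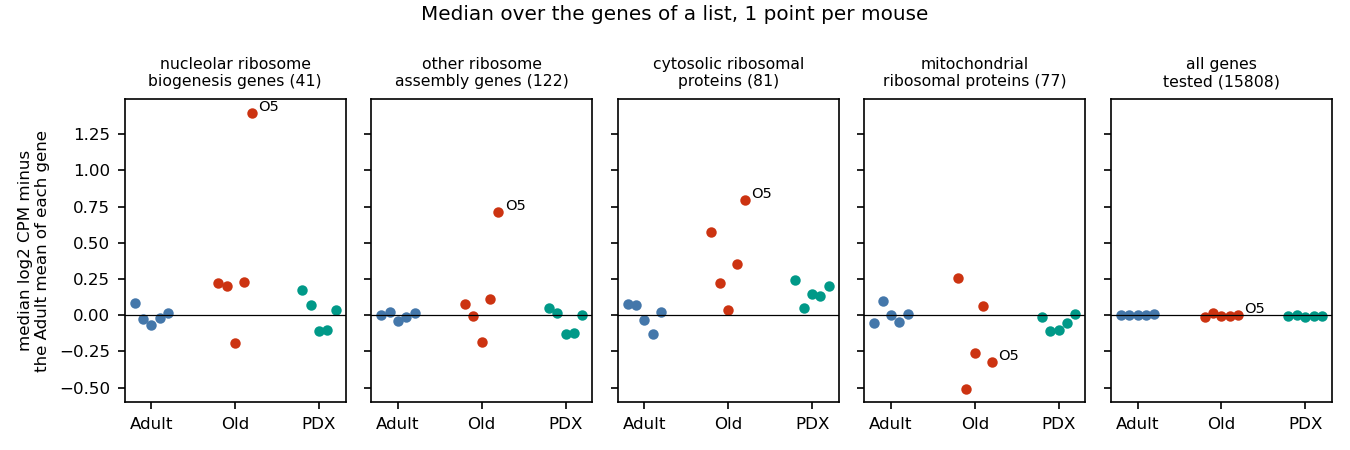
Median over the genes of each list of log2 CPM minus the gene's Adult mean, with 1 point per mouse and the number of genes in brackets. O5 stands at 1.40 for the 41 nucleolar genes, 0.71 for other assembly genes, 0.80 for cytosolic ribosomal proteins and -0.32 for mitochondrial ones, and all mice are near 0 over all tested genes.

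Myc, the transcription factor known to act on these genes, was at 2.73, 11.5, 2.78, 5.05 and 4.71 CPM in A1 to A5, 5.22, 18.0, 11.2, 4.20 and 30.8 in O1 to O5 and 7.69, 6.46, 7.92, 10.3 and 4.54 in P1 to P5. O5 had the highest level of Myc and the highest member mean, 1.36 on the log2 scale. O2, with 18.0 CPM, had the next level of Myc and a member mean of 0.17. O4 had the least Myc of the Old mice and the second highest member mean. Whether Myc had a part in the levels of the members was not tested. The log2 fold change of Myc between Old and Adult was 1.38 (SE 0.51, adjusted p = 0.102).

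Marker genes of liver cell types also set O5 apart, for some types together with O2, and their part in the high values was not tested. The 8 hepatocyte markers summed to 62409 CPM in O5, the lowest of the 15 mice. O2 was next, at 77490 CPM, and the other Old mice had 131465 to 205436. The range was 127538 to 140847 in Adult and 112823 to 166111 in PDX. O5 was also the lowest mouse in the sums of 8 sinusoidal endothelial markers (223 CPM, against 434 to 470 in Adult, 391 to 443 in the other Old and 360.5 to 503 in PDX mice), 8 macrophage markers (340.0 CPM, against 466 to 705 in Adult), 8 erythroid markers (97.3 CPM, against 166 to 252) and 8 T and NK cell markers (2.85 CPM, against 5.49 to 9.76). It was the highest in 8 stellate cell markers, at 855 CPM. Their sums were 359 to 391 CPM in Adult, 367 to 471 in O1, O3 and O4, 694 in O2 and 352 to 661 in PDX. After 1 PDX mouse, O5 was also the highest in 8 cholangiocyte markers (99.3 CPM, against 39.9 to 53.1 in Adult). The markers of a list did not move as one, so that the sums followed their most abundant members. Of the hepatocyte markers in O5, 5 lay below all Adult mice, among them Alb, while Apoa1 and Cps1 were within the Adult range and Tat was above it. Of the stellate cell markers, 4 lay above all Adult mice (Col1a1, Col3a1, Dcn and Des) and 3 below (Lrat, Ngfr and Reln). Of the sinusoidal endothelial markers 6 lay below, Pecam1 was within and Lyve1 above, and of the macrophage markers 5 lay below, Csf1r was within and Cd68 and Marco above. For erythroid markers 5 lay below and 1 above (Ermap), for T and NK cell markers 4 below and 0 above, and for cholangiocyte markers 6 above and 1 below (Krt23). Markers with a count of 0 in O5 included Tnfrsf17, Epb42, Rhag and Ncr1.

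Ribosome production is known to be high in dividing cells, and the part of such cells in the high values was not tested. The sum over 8 markers of dividing cells was 7.54 CPM in O5, within the Adult range of 5.65 to 8.32. It was 158 CPM in O2 and 5.39 to 17.0 in O1, O3 and O4. Of these markers in O5, 1 lay above all Adult mice (Ccna2), 1 below and 6 within their range. Neutrophil and myeloid progenitor markers summed to 29.8 CPM in O5 and 206 in O2, with 1.21 to 3.19 in Adult. B and plasma cell markers summed to 14.9 CPM in O5 and 121 in O2, with 7.79 to 13.6 in Adult. Of those tested, 7 of 7 and 4 of 7 were called higher in Old than in Adult, beside 4.71% of all tested genes. O5 had 26607323 counted pairs and a TMM factor of 1.04, both inside the range of the other mice. By the labels it also had the highest frailty index of the 15 mice, 0.56, and 4 positive frailty criteria, a number shared with O4 and P5.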

How the data were processed

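mRNA of the liver of 15 female mice, 5 each in the Adult, Old and PDX groups, was sequenced as poly(A)-selected, strand-specific libraries, 1 per mouse. The deposited values are raw counts of read pairs per gene, which the authors made by aligning reads to mm10 with STAR 2.6.0c and counting pairs that aligned uniquely, by strand, in non-mitochondrial genes of Ensembl release 100 with featureCounts from Subread 1.6.2. A variance-stabilized table made from the same counts was not used here. Groups were taken from the sample descriptions, and 0 columns were left without a sample. Symbols and coordinates came from GENCODE M21 on GRCm38, the assembly that mm10 names, which gave a symbol to 55104 of 55450 gene IDs.

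Counts were tested in R 4.3.3 with edgeR 4.0.16: filterByExpr (minimum count 10, minimum total 15), TMM scaling and 1 quasi-likelihood fit of all 15 mice with 1 coefficient per group and 12 residual degrees of freedom. Tests were two-sided, with Benjamini-Hochberg adjustment over 15808 genes and a threshold of 0.05, and 0.25 in addition between PDX and Old. Standard errors were derived from the quasi-likelihood F statistic. Log2 CPM used a prior count of 2. Alternatives were DESeq2 1.42.0, limma 3.58.1 (voom), other scalings and filters, fits of the 10 mice compared, a replicate block, and fits without each mouse or without O2 and O5. The test was run on simulated data in which every gene and mouse had the same dispersion and no mouse stood apart. That check therefore does not cover the unequal spread of the Old group.

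The members and all gene lists were chosen with earlier results of these data known. The comparison of O5 with the other Old mice, the lists of ribosomal protein genes and the transcript lengths were chosen after their values were seen. Members given mouse by mouse were those called between Old and Adult, the extremes of each role group, 3 chosen by smallest p of PDX against Old, and the 3 highest and 3 lowest levels per kilobase. Other members are given by a few values. CACGTG was searched on both strands of RefSeq promoters. No protein sequence is shown. Mice were euthanized in batches that the sources used here do not give per mouse.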

Additional observations from a re-analysis of the deposited data

Results flagged for a closer look

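Single mice stood apart from the 4 others of their group, by Dixon's test at a critical value of 0.71 for 5 mice, in 9 of 19 measures examined in the Old group, 5 of 19 in the PDX group and 0 of 19 in the Adult group. The measures were the CPM of the 18 members described mouse by mouse and the mean level over all members. Chance alone sets a mouse apart in about 1 in 20 groups, but the 18 were named in part by values that O5 itself raises, so their count is a description and no test. Over all 41 members O5 stood apart above the other Old mice for 24 (58.5%), as it did for 8.17% of all tested genes. A mouse of either direction stood apart for 19.8% of tested genes in the Old, 6.56% in the PDX and 6.46% in the Adult group, and for 5 and 1 members in the PDX and Adult groups. In the Old group the mouse was O5 for all 9 genes: Nop58 at 87.4 CPM, Gar1 at 27.0, Ddx21 at 169, Npm1 at 114, Rrp12 at 59.0, Rrp1b at 30.0, Nop56 at 67.1, Gnl3 at 134 and Ncl at 530 CPM (529.6 before rounding). The 9 genes were measured in the same library and are not independent observations. In the PDX group P1 stood apart for Srm at 30.3 CPM, Polr1e at 7.69, Ddx18 at 10.4 and Nop56 at 22.0, and P5 for Npm1 at 50.5. The PDX values were close to those of other groups: Npm1 in P5 lay within the Adult range, and so did Nop56 in P1, whereas P1 lay above the Adult range for Srm, Polr1e and Ddx18.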

How the results depend on the processing

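The number of members called between Old and Adult, 1 of 41 beside 6.78% of tested genes, was 5 with DESeq2 (16.2% of tested genes), 0 with limma-voom (2.97%), 2 on total counts (6.86%), 2 with a filter of CPM above 1 in 5 mice (6.99%), 0 in a fit of the 10 mice compared (0.698%), and 0 to 11 without each mouse in turn (0.97% to 13.5%). Between PDX and Adult it was 4 in the fit of 10 mice (29.6%) and 1 without O2 and O5 (24.6%), and 0 otherwise, and between PDX and Old 0 in every fit. Without each mouse in turn the median log2 fold changes ran from 0.14 to 0.60 between Old and Adult, -0.0025 to 0.06 between PDX and Adult and -0.59 to -0.11 between PDX and Old. The values nearest 0 for the Old comparisons were those without O5, which moved the medians from 0.51 to 0.14 and from -0.48 to -0.11, and the SD of 0.59 among the Old mice includes O5 at 1.36.

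Signs turned mainly without O5. Between Old and Adult the lowest and highest log2 fold changes without each mouse in turn were -0.12 and 0.16 for Dkc1, -0.0078 and 0.40 for Npm1, -0.27 and 0.80 for Gnl3, -0.026 and 0.62 for Ncl and -0.046 and 0.18 for Wdr12. Without O2 and O5 they were -0.24 for Dkc1, -0.14 for Ddx21, -0.0435 for Npm1, -0.0162 for Ddx18, -0.0253 for Nop56, -0.33 for Gnl3, -0.0729 for Ncl and -0.0042 for Wdr12. Between PDX and Adult the ranges without each mouse in turn were -0.0165 to 0.11 for Nop58 and -0.0187 to 0.0697 for Fbl. Between PDX and Old they were -1.07 to 0.0592 for Rrp12 and -0.17 to 0.32 for Rcl1, and without O2 and O5 the values were 0.0259 for Polr1a, 0.0493 for Ddx21, 0.16 for Rrp12, 0.18 for Rcl1 and 0.0222 for Rrp1b. Limma-voom gave Rcl1 0.0945. Beyond the samples left out, the cause was not tested.

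Replicate numbers are shared between groups but name different animals. Deviations of same-numbered mice correlated at -0.17 on average between Old and Adult, 0.03 between PDX and Adult and 0.09 between PDX and Old, and 0, 2 and 2 of 5 mice correlated best with their own number. With a replicate block 0 members were called in each comparison, 237 genes in place of 1072 were called between Old and Adult, the medians were 0.37, 0.04 and -0.37, and Rcl1 was at 0.0658 between PDX and Old.

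Depth does not limit the members, the least of which had 89 pairs in a mouse. The limits are 5 mice per group, whole tissue without cell counts, euthanasia batches not given for each mouse, and a list whose direction was known. Most of the average difference between Old and Adult came from O5, and the calls also depended on other mice.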

Other observations

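A single mouse also held many of the lowest values. O3 had the lowest level of the 15 mice for 14 of the 41 members (34.1%), beside 6.05% of all tested genes, while P4 was lowest for 6 and P3 for 5, and O3 had 3 members above their Adult mean where O1, O2 and O4 had 32, 32 and 35.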
